A study of Mus musculus with 2 samples.

Results

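The immediate early transcription factor genes are Fos, Fosb, Fosl1, Fosl2, Jun, Junb, Jund, Egr1, Atf3 and Ier3. These 10 genes, of 43629 Ensembl genes counted, were chosen by name with earlier results of these data known, and each symbol matched 1 gene identifier in both count files. Ier3 does not encode a DNA-binding factor, so the words transcription factor fit 9 of the 10. PolyA RNA was sequenced from Dicer_KO mouse embryonic stem cells (mESCs) of 129/Ola background in 2 libraries. The cells of replicate 1 were at passage 7, those of replicate 2 at passage 4. The parental line was E14TG2a, a blastocyst-derived mESC line kept in serum with leukemia inhibitory factor, and Dicer1 was disrupted with paired CRISPR/Cas9 guides in cells sorted singly, so each line is a clone. The study made 2 deletions of Dicer1, and the labels do not name the deletion of either library. Line, passage number and library therefore cannot be told apart, and a difference between the libraries has no replicate check and was not tested. WT mESCs were not analysed here, so no value below is a change caused by the loss of Dicer1.

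Immediate early genes are transcribed within minutes of a stimulus, such as serum or stress, from factors already present in the cell, with no need for new protein. Fos and Jun family proteins carry a basic leucine zipper (bZIP) and pair as AP-1, which binds the sequence TGAGTCA. Fos proteins need a Jun partner, whereas Jun proteins also pair with each other. EGR1 is a zinc finger factor induced through ERK signalling, ATF3 is a bZIP protein of the stress response, and IER3 is a short-lived regulator of ERK signalling and cell survival. Their mRNAs are in general short-lived, and many carry AU-rich elements in the 3' UTR that hasten their decay.

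The libraries held 41710122 and 41566184 counts on genes, and counts were scaled by these totals to CPM, counts per 1000000, where 3 counts corresponded to 0.0719 and 0.0722 CPM. All 10 mESC markers listed were detected, among them Dppa5a with 199860 and 84835 counts, Pou5f1 with 39069 and 43025 and Nanog with 47522 and 26215. Of these 10, Dppa5a was at least 2-fold higher in replicate 1 (log2 ratio 1.11) and Lin28a at least 2-fold lower (-1.64). Dicer1 itself had 1343 and 1510 counts, and reads outside the deleted exons still count, so this total does not check the deletion. The paper reports a loss of Dicer mRNA in both mutants from its RNA sequencing. It also reports the deletions by PCR and the absence of the protein by immunoblot. Without a WT level, the counts here do not measure such a loss. Genes on chromosome 15 had a median log2 ratio of replicate 1 over replicate 2 of 0.59 over 683 genes, against -0.00 for all other genes, and none of the 10 members lies there.

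Egr1 was the most abundant of the 10 by counts, and Fosl1 was close to the limit of detection. The AP-1 genes other than Fosl1, together with Atf3 and Ier3, had more counts in replicate 1, whereas Egr1 and Fosl1 had more in replicate 2. Fos (ENSMUSG00000021250, chromosome 12, 85473890 to 85477273 of GRCm38, plus strand), the founding Fos family member, had 2838 counts in replicate 1 and 877 in replicate 2, or 68.0 and 21.1 CPM. Fosb (ENSMUSG00000003545, chromosome 7, 19302696 to 19310051, minus strand) had 233 and 110 counts, or 5.59 and 2.65 CPM. Fosl1, which encodes FRA1 (ENSMUSG00000024912, chromosome 19, 5447547 to 5455946, plus strand), had 10 and 18 counts. Its 95% Wilson intervals of 0.130 to 0.441 and 0.274 to 0.685 CPM overlapped, so a difference was not detectable at this depth. Fosl2, which encodes FRA2 (ENSMUSG00000029135, chromosome 5, 32135801 to 32157842, plus strand), had 960 and 314 counts, or 23.0 and 7.55 CPM. Of the Fos family, Fos and Fosl2 thus carried nearly all counts, and both lay far apart in the 2 libraries.

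Among the Jun genes, Jund had the most counts. Jun (ENSMUSG00000052684, chromosome 4, 95049034 to 95052222, minus strand), the prototype of the family, had 2209 and 982 counts, or 53.0 and 23.6 CPM. Junb (ENSMUSG00000052837, chromosome 8, 84974484 to 84978718, minus strand), a weaker activator that can hold back Jun, had 1757 and 841 counts, or 42.1 and 20.2 CPM. Jund (ENSMUSG00000071076, chromosome 8, 70698949 to 70700616, plus strand), which many cells express without a stimulus, had 3447 and 1609 counts, or 82.6 and 38.7 CPM. All 3 Jun genes were thus higher in replicate 1, with intervals that did not overlap between the libraries. Their coding transcripts have a single exon, a structure that they share with 820 protein-coding genes tested, if the longest annotated transcript is taken. The median log2 ratio of those 820 genes was -0.00.

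Egr1 (ENSMUSG00000038418, chromosome 18, 34859823 to 34864984, plus strand) had 6368 counts in replicate 1 and 8909 in replicate 2, or 153 and 214 CPM. Atf3 (ENSMUSG00000026628, chromosome 1, 191170296 to 191218039, minus strand) had 719 and 174 counts, or 17.2 and 4.19 CPM. Ier3 (ENSMUSG00000003541, chromosome 17, 35821684 to 35822923, plus strand) had 822 and 163 counts, or 19.7 and 3.92 CPM. Egr1 therefore lay the other way round from Atf3 and Ier3, and for each of these 3 genes the libraries lay apart by more than their counting intervals. As means of both libraries, Egr1 was at 184 ± 43.6 CPM, Jund at 60.7 ± 31.1, Fos at 44.6 ± 33.2, Jun at 38.3 ± 20.7 and Junb at 31.2 ± 15.5 (SD, n = 2). Intervals cover counting error only, and not variation between cultures or library preparations. Reads that stem from the same amplified fragment are not independent, so even the counting error may be larger. In such bulk RNA, a smaller number of expressing cells and less mRNA in each cell cannot be told apart.

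**Figure D1:**
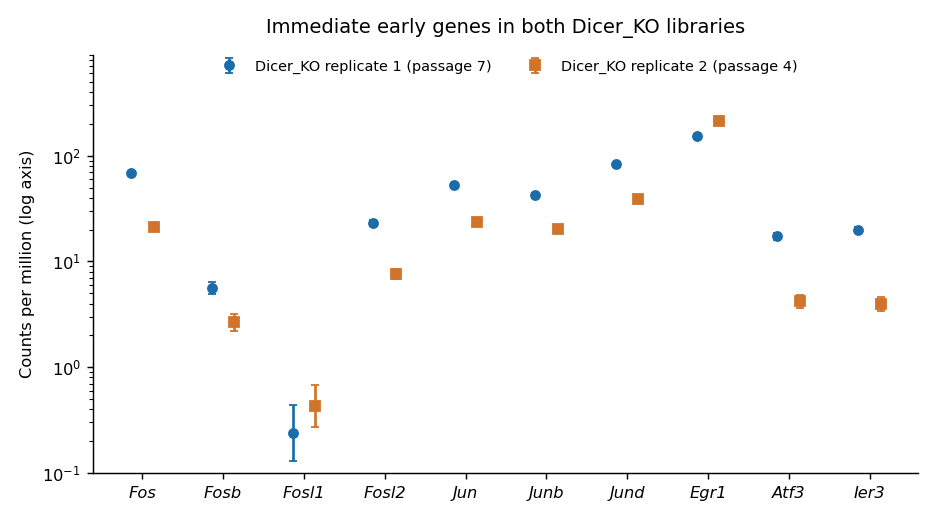
CPM (log axis) of the 10 genes in Dicer_KO replicate 1 (circles) and replicate 2 (squares), with 95% Wilson intervals for counting error. 8 genes were higher in replicate 1, and Egr1, at 153 and 214 CPM, and Fosl1, at 0.240 and 0.433 CPM, were higher in replicate 2.

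After scaling with the TMM factors of edgeR, 8 of the 10 members were higher in replicate 1 and 2 were lower. Of all genes tested, 51.3% were higher in replicate 1. The minimum for a ratio was an average of 10 counts over both libraries, which all 10 members reached, Fosl1 with few counts to spare. Log2 ratios of replicate 1 over replicate 2 used a pseudocount of 0.5. Ier3 had the highest ratio, 2.21 on the log2 scale (95% exact counting interval 1.97 to 2.46), followed by Atf3 at 1.92 (1.68 to 2.17). Fos stood at 1.57 (1.46 to 1.68) and Fosl2 at 1.49 (1.30 to 1.68). These 4 genes had intervals that lay wholly above 2-fold, a log2 ratio of 1. The Jun genes and Fosb fell close to 2-fold, with Jun at 1.05 (0.94 to 1.16), Jund at 0.98 (0.89 to 1.06), Fosb at 0.96 (0.63 to 1.30) and Junb at 0.94 (0.82 to 1.06). Egr1 had a ratio of -0.61 (-0.65 to -0.56), and Fosl1 one of -0.93 (-2.25 to 0.22), whose interval includes no difference.

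With the 2-fold threshold, 5 of the 10 members (Fos, Fosl2, Jun, Atf3 and Ier3) were higher in replicate 1 and 0 passed it in the other direction. Of the 17788 genes that reached the minimum, 14.4% were higher by at least 2-fold in replicate 1 and 7.22% were lower by as much. The members were chosen with these libraries in view, so nothing is read from their count against that background. Total counts in place of TMM raise every log2 ratio by 0.12, and 8 members then passed 2-fold, since Fosb, Junb and Jund crossed the threshold with 16.4% of all genes passing in that direction and 5.97% in the other. The median log2 ratio of the members was 1.01, beside 0.02 for all genes tested, whose quartiles were -0.38 and 0.54. A ratio above that of Ier3 was found in 3.38% of the genes tested, above that of Fos in 7.33%, and above that of Jun in 13.6%. A ratio below that of Egr1 was found in 15.4%. A ratio above that of Jund was found in 14.8%, above that of Fosb in 15.1% and above that of Junb in 15.3%. Apart from Fosl1, the AP-1 genes thus lay on the upper side of a broad distribution. The differences of Egr1, Jund, Fosb and Junb were about equally common among the genes tested.

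**Figure D2:**
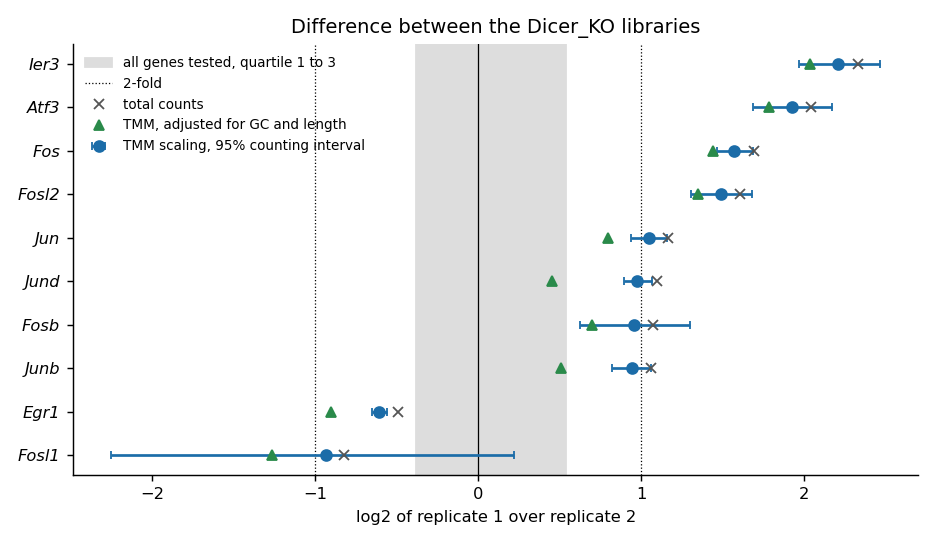
Log2 ratio of replicate 1 over replicate 2 for each member, with TMM scaling (circles, 95% counting intervals), with total counts (crosses) and after adjustment for GC content and transcript length (triangles). The grey band spans the quartiles of all genes tested, -0.38 to 0.54, and the dotted lines mark 2-fold; Ier3, Atf3, Fos and Fosl2 stay above it under all 3 settings.

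Promoter sequence was examined for motifs through which these genes are known to respond. RefSeq promoters of GRCm38.p6 were matched for 8 of the 10 genes, leaving out Fosl1 and Egr1, and the 250 bases before the start were searched on both strands. The promoters of Fos, Jun, Junb and Atf3 are shown as examples of different arrangements, to keep the sequences few. They lie at chr12:85473640-85473889 (plus strand), chr4:95052223-95052472, chr8:84978749-84978998 and chr1:191183334-191183583 (minus strand), and the Atf3 window lies inside the annotated gene, which extends further upstream, as does that of Fosl2. The Jund window lies upstream of the gene model counted and does not adjoin it, so its lack of the motifs below concerns the RefSeq start. Capitals mark TGACGT (the core of the cAMP response element), TATAAA (the TATA box), GGGCGG (the GC box) and CCAAT (the CCAAT box), in either orientation, and overlapping matches form a single run of capitals.
Fos: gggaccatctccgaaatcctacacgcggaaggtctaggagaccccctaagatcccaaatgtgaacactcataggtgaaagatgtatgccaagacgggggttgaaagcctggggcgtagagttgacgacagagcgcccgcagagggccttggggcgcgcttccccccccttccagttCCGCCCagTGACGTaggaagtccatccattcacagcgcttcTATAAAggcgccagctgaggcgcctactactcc
Jun: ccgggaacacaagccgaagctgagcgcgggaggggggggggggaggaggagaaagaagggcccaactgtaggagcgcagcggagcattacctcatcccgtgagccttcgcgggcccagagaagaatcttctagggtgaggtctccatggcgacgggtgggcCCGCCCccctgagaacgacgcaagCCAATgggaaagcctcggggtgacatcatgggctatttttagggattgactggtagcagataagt
Junb: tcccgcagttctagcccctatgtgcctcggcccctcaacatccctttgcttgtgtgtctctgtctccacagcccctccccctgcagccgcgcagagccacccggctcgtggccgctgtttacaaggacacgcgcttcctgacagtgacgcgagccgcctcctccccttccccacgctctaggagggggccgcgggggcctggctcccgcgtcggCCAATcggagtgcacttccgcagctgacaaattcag
Atf3: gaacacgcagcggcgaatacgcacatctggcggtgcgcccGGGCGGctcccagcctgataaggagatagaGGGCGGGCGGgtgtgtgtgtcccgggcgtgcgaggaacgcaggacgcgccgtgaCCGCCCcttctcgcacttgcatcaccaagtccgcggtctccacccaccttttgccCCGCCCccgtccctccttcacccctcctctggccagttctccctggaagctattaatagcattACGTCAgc

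The cAMP response element core was present in Fos, 66 to 61 bases before the start, and in Atf3, 8 to 3 bases before it, and in none of the other 6 windows. It was found in 6.47% of the 32851 RefSeq promoter windows of the same length. TATAAA was present in Fos only, 33 to 28 bases before the start, and in 12.4% of all windows. GGGCGG was present in 6 of the 8 promoters (Fos, Fosb, Fosl2, Jun, Atf3 and Ier3) and in 32.7% of all windows, and CCAAT in 3 (Jun, Junb and Ier3) and in 33.8%. TGAGTCA, found in 4.46% of all windows, lay in none of these 8 windows. A CArG box, the site of serum response factor, found in 1.47% of all windows, lay in none of the 8 either. Sequence further upstream was not searched, and Fosl1 and Egr1 had no window. The absence of these motifs therefore does not show that the genes lack such sites. Only the exact letters of TGAGTCA and TGACGT were searched, so variants of these sites, such as tgacatca in the Jun window, are not marked. All matches are letters in a window, and binding was not measured.

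The 3' UTRs of the members were searched for ATTTA, the pentamer of AU-rich elements, because these elements mark short-lived mRNAs. It was found in 10 of the 10 members and in 64.6% of the 14409 3' UTRs of genes tested. Ier3 had 5 copies in 613 bases, Fos 4 in 815, Junb 2 in 485 and Jun 4 in 1233. Per kb this was 8.16 for Ier3, more than in 98.6% of genes, 4.91 for Fos, more than in 93.2%, and 4.12 for Junb, more than in 89.7%. Fosb, with 1 copy in 2145 bases, and Egr1, with 2 in 1216, had 0.466 and 1.64 per kb. That was more than in 34.1% and 58.2% of genes. The remaining members ran from 56.5% for Fosl1 to 82.5% for Jun. Across all members the density was 2.29 per kb, against 1.80 over all 3' UTRs. Longer 3' UTRs have more room for a match, and mRNA decay was not measured.

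DICER makes mature miRNAs from their precursors, so sites of the miRNAs that the study probed in these cells were searched as well. The paper reports that the mature forms of both were absent from its Dicer_KO lines. The matches are thus described as sequence only, and an effect on the levels given here was not tested. The mature sequences are shown with the seed, bases 2 to 8, in capitals, from RefSeq (GRCm38.p6), at chr7:3220815-3220837 and chr3:69009918-69009939, both on the plus strand.
miR-295-3p: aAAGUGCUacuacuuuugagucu
miR-16-5p: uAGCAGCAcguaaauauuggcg

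A 3' UTR match to the seed of miR-295-3p, which it shares with miR-291a-3p, miR-294-3p, miR-302b-3p and miR-302d-3p, was found once each in Fosb and Ier3. Matches to that of miR-16-5p were found only in Fosl2, at 3 places. Capitals mark the match in each site, positions count from the start of the 3' UTR, and the last Fosl2 site and the Fosb site also have an A after it.
Fosb: cctggttcccaaaaAGCACTTa
Ier3: acactccgtcttccAGCACTTc
Fosl2 at position 1775: cttggctctaactcTGCTGCTc
Fosl2 at position 2695: tagggagctcagacTGCTGCTt
Fosl2 at position 4510: gcttggtaggagctTGCTGCTa

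Of all 3' UTRs of genes tested, 15% held a match for miR-295-3p and 21.4% one for miR-16-5p. Among the 10 members these numbers were 2 and 1. Fos, Jun, Junb, Jund and Atf3 had neither, and no match says only that these letters are not in the UTR searched.

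GC content moved with the difference between the libraries, and all 10 members are GC-rich. The genes tested were split by the GC content of their longest transcript into 5 bins of nearly equal size. Their median log2 ratio went from -0.20 in the bin of lowest GC content to 0.30 in that of highest GC content (55.4 to 73.7%), where 23% of the genes were at least 2-fold higher in replicate 1. Of the members, 6 fell in the bin of highest GC content and 4 in the next one, where the median was 0.14. Jund (67.1% GC) and Junb (62.6% GC) were the GC-richest members. When GC content and transcript length were regressed out over all genes tested, an adjustment chosen after the data were seen, Ier3 had a log2 ratio of 2.03, Atf3 1.78, Fos 1.44 and Fosl2 1.35. Jun dropped below 2-fold, to 0.80, while Fosb, Junb and Jund stood at 0.70, 0.51 and 0.45. Egr1 moved to -0.90 and Fosl1 to -1.26. Ier3, Atf3, Fos and Fosl2 thus led the order by ratio with and without the adjustment.

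**Figure D3:**
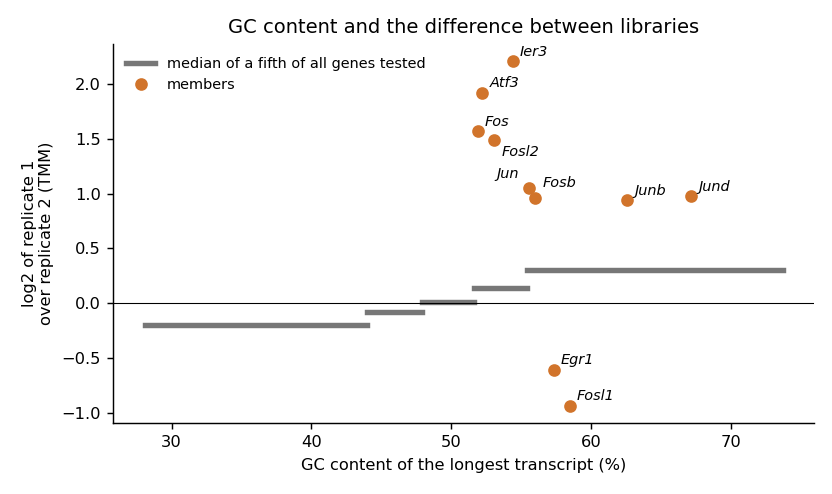
GC content of the longest transcript (in percent) against the log2 ratio of replicate 1 over replicate 2, for the 10 members (points) and as medians of 5 bins of all genes tested (bars, drawn over the GC range of each bin). The medians rise from -0.20 to 0.30, and the 8 members higher in replicate 1 lie above the median of their bin.

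Levels of different genes were compared per length, as CPM per kb of exon. Egr1 was at 34.0 CPM per kb in replicate 1 and 47.8 in replicate 2, above 90.6% and 93.8% of the genes tested. Jund followed with 49.5 and 23.2, then Fos with 28.9 and 8.97, Junb with 18.3 and 8.79, Jun with 16.6 and 7.41, and Ier3 with 17.4 and 3.47. Atf3 had 8.003 and 1.94, Fosl2 had 2.38 and 0.780, and Fosb had 0.895 and 0.424. Fosl1 came last, with 0.118 and 0.213. Neighbours in this order overlapped over the 2 libraries at every step but the last, between Fosb and Fosl1. With these GENCODE M21 lengths, Jund had the highest level in replicate 1 and Egr1 in replicate 2. With its longer RefSeq span, Jund was at 28.7 and 13.5 CPM per kb, below Egr1 in both libraries. Which gene led in replicate 1 thus depends on the gene model of Jund.

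Within the Jun family, the shares of the 3 genes were nearly equal in the 2 libraries, although the summed level differed. The family summed to 84.5 CPM per kb in replicate 1 and 39.4 in replicate 2. Jund made up 58.7% and 58.9% of it, Junb 21.7% and 22.3%, and Jun 19.7% and 18.8%. As shares of the counts, with no length correction, Jund held 46.5% (95% Wilson interval 45.4 to 47.6) of 7413 counts in replicate 1 and 46.9% (45.2 to 48.6) of 3432 in replicate 2. The intervals of Jun, 28.8 to 30.9% and 27.1 to 30.1%, and of Junb, 22.7 to 24.7% and 23.1 to 26.0%, overlapped as well, so no shift among the Jun genes was detectable at this depth. These shares depend on the gene models, since Jund has 1668 bases and Junb 2301 in GENCODE M21, against RefSeq spans of 2878 and 1840. With RefSeq spans, Jund held 42.2 ± 0.0916%, Junb 34.0 ± 0.678% and Jun 23.8 ± 0.770% (SD, n = 2), so the order Jund, Junb, Jun was found with both lengths.

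In the Fos family, Fos itself made up 89.5% of the summed level in replicate 1 and 86.4% in replicate 2. Fosl2 held 7.36% and 7.51%, Fosb 2.77% and 4.08%, and Fosl1 0.365% and 2.05%. By counts, Fosl1 held 0.247% (0.134 to 0.455) of 4041 counts and 1.36% (0.865 to 2.15) of 1319, and the share of Fosb was 5.77% (5.09 to 6.53) and 8.34% (6.97 to 9.96). Both intervals were apart between the libraries, whereas those of Fosl2, 22.5 to 25.1% and 21.6 to 26.2%, overlapped. A share depends on the family total, most of which was Fos, so it is not the gene's own level. Fosl1 had only 10 and 18 counts, and Fosb had more counts in replicate 1 although its share was lower there. The whole family summed to 32.3 and 10.4 CPM per kb, and the ratio of the Jun to the Fos family was 2.61 in replicate 1 and 3.79 in replicate 2, or 3.20 ± 0.835 (SD, n = 2). In both libraries Jun family mRNA therefore exceeded Fos family mRNA per length.

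**Figure D4:**
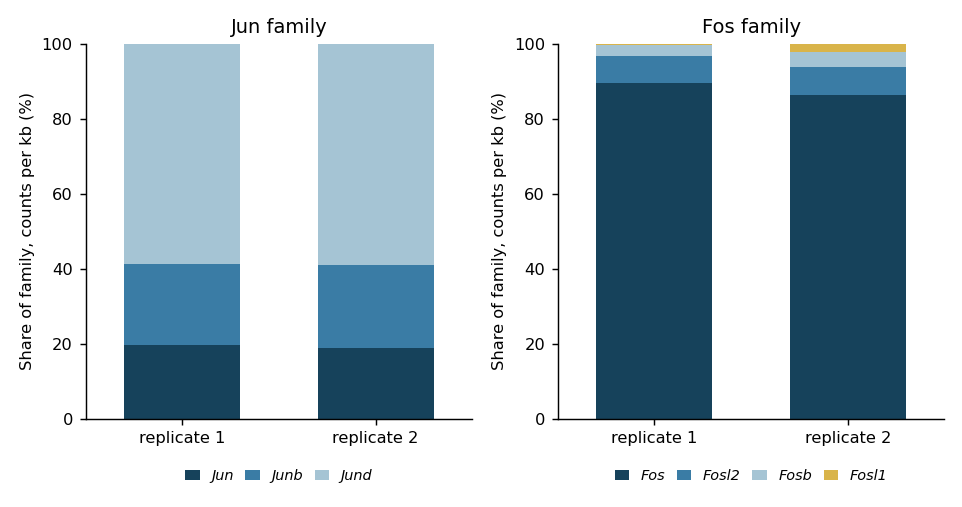
Share of each gene in the summed level of its family (in percent of CPM per kb of exon, GENCODE M21 lengths), for the Jun genes and the Fos genes in each library. Jund held 58.7% and 58.9% of the Jun family, and Fos held 89.5% and 86.4% of the Fos family.

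Genes that act with or around these factors were taken from 6 lists written with earlier results of these data known, 114 genes in all. With TMM scaling, 19 of these were at least 2-fold higher in replicate 1 and 10 were at least 2-fold lower, counting only genes above the minimum. The lists were described by their counts and medians and not tested, beside 14.4% and 7.22% of all genes. By direction alone, with no threshold, 51.3% of all genes tested were higher in replicate 1.

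Other immediate early genes were mixed in direction. Of 37 such genes, 35 had enough counts, 7 were at least 2-fold higher in replicate 1 and 3 at least 2-fold lower, with a median log2 ratio of 0.26. Cebpb, a bZIP factor of inflammation, had 236 and 53 counts (log2 ratio 2.02). Klf10, a zinc finger factor induced by TGF-beta, had 10379 and 3850 (1.31), and Arc, best known from neurons, had 3120 and 1183 (1.28). Both lie on chromosome 15. Lower were Myc, the growth-promoting factor on the same chromosome, with 128 and 569 counts (-2.27), Ptgs2, which encodes a prostaglandin synthase, with 113 and 323 (-1.63), and Tiparp with 2665 and 4986 (-1.03). The most abundant genes of the list differed less, with 38369 and 27078 counts of the survival factor Mcl1 (0.38) and 18499 and 13781 of Klf2 (0.30). Immediate early genes of this list thus lay on both sides, 25 higher in replicate 1 and 10 lower.

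Other bZIP genes were mostly higher in replicate 1. Of 17 genes, 15 had enough counts, 7 were at least 2-fold higher in replicate 1 and 0 at least 2-fold lower, with a median of 0.98. Jdp2, which pairs with Jun proteins and represses AP-1 sites, had 1783 and 476 counts (1.78). Atf4, the central factor of the integrated stress response, had 26088 and 10764 counts (1.15), and it lies on chromosome 15. Mafa, with 42 and 6 counts (2.59), rests on few counts. Nfe2l2, the oxidative stress factor, had 8235 and 7047 (0.10). Without the 5 genes on chromosome 15, 5 bZIP genes remained at least 2-fold higher, with a median of 1.05.

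The EGR family and its cofactors were lower in replicate 1, as Egr1 was. Of 6 genes, 5 had enough counts, and 4 of these were at least 2-fold lower in replicate 1 and 0 at least 2-fold higher. Egr2 had 34 counts in replicate 1 and 80 in replicate 2 (-1.34), and Egr3 had 9 and 54 (-2.64). Nab2, a corepressor that EGR1 induces and that binds it, had 692 and 1290 (-1.02), whereas the related Nab1 had 929 and 953 (-0.16). Wt1, a zinc finger factor that binds EGR-like sites, had 146 and 440 (-1.71), and Egr4 had 0 and 8 counts, too few for a ratio. All 5 genes with a ratio were thus lower in replicate 1, from -2.64 to -0.16, as Egr1 was at -0.61.

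The kinases and factors upstream of these genes, such as serum response factor, the ELK proteins and the MAP kinases, differed little. Of 23 genes, 22 had enough counts and 0 passed 2-fold in either direction. Their log2 ratios ran from -0.48 to 0.58, with a median of 0.01. Rps6ka1, a kinase below ERK and among the most abundant of the list, had 6922 and 6899 counts (-0.12). Protein activity was not measured.

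Among 12 genes of mRNA decay and feedback, 1 was at least 2-fold higher in replicate 1 and 2 at least 2-fold lower, with a median of -0.20. Zfp36, an immediate early gene itself whose protein binds AU-rich elements and speeds decay, had 3084 and 1015 counts (1.48). The ERK-induced phosphatase gene Dusp4 had 79 and 175 (-1.26), and Dusp2 had 20 and 38 (-1.03). The RNA-binding protein genes Hnrnpd and Khsrp, the most abundant of the list, had 8783 and 12815 counts (-0.67) and 6854 and 5547 (0.18). Zfp36 was the only gene of this list at least 2-fold higher in replicate 1, with TMM scaling.

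Genes known as AP-1 targets in other cells did not share a direction. Of 19, 14 had enough counts, 4 were at least 2-fold higher in replicate 1 and 1 at least 2-fold lower, with a median of 0.32. Vegfa, the vascular growth factor, had 5186 and 1133 counts (2.07), Mmp9, a matrix protease, had 114 and 27 (1.94), and Plau, the urokinase gene, had 46 and 14 (1.56). Vim, the intermediate filament vimentin, had 1520 and 6933 (-2.31). Spp1 and Ccnd1, the most abundant of the list, had 30813 and 39618 counts (-0.48) and 7459 and 11379 (-0.73).

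**Figure D5:**
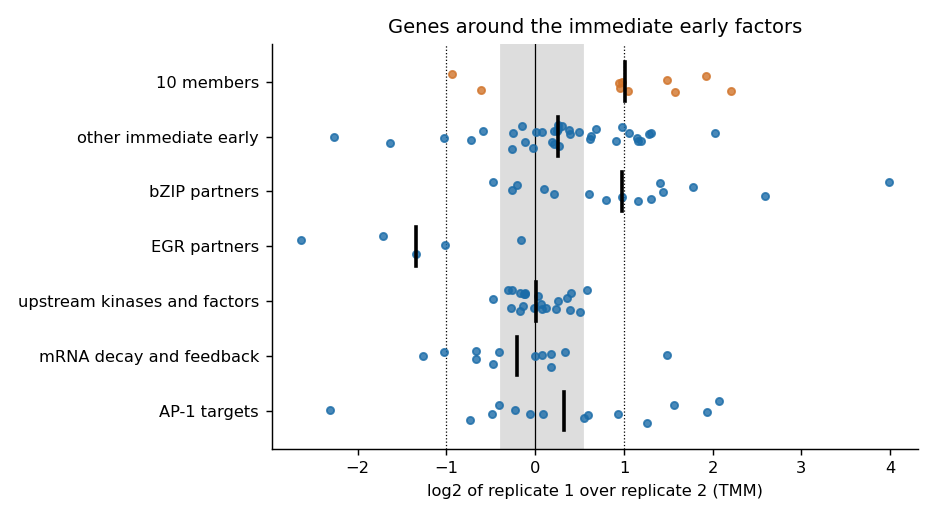
Log2 ratio of replicate 1 over replicate 2 (TMM) for the 10 members and the genes of 6 lists with a mean of at least 10 counts, each point 1 gene and each black bar the median. The grey band spans the quartiles of all genes tested and dotted lines mark 2-fold; the EGR list lies at -2.64 to -0.16 and the upstream list at -0.48 to 0.58.

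Markers of other cell types also differed between the libraries. Of all genes tested, 14.4% were at least 2-fold higher in replicate 1 and 7.22% were lower by as much. Of 6 trophectoderm markers, 5 had enough counts and all 5 were at least 2-fold higher in replicate 1, and the list summed to 165 CPM in replicate 1 and 36.9 in replicate 2. Most of this came from Tfap2c, with 3742 and 1311 counts, and the keratin gene Krt7, with 2674 and 44. The defining factor Cdx2 had 6 and 1 counts. Krt7 lies on chromosome 15, and without it 4 trophectoderm markers remained at least 2-fold higher in replicate 1. The 9 fibroblast markers summed to 27.2 and 18.3 CPM, of which Thy1, with 823 and 621 counts, and Pdgfrb, with 285 and 91, gave nearly all. Dcn, with 0 and 19 counts, and Acta2, with 1 and 11, lay the other way, and Postn had 0 in both. Among 6 primitive endoderm markers, led by Gata4 with 586 and 318 counts, 2 of 5 with enough counts were at least 2-fold higher in replicate 1 (18.2 and 10.6 CPM in sum). Of 4 neuroectoderm markers, Tubb3 was the only one past 2-fold, lower with 559 and 1653 counts (62.2 and 92.3 CPM in sum). Of 4 mesoderm markers, Hand1 was at least 2-fold higher with 229 and 15 counts and Kdr at least 2-fold lower with 90 and 353 (8.25 and 9.29 CPM in sum). The part of these markers, of GC content and of passage in the levels of the immediate early genes was not tested.

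Overlap with other genes could touch the counts of 4 members, since reads on overlapping regions were left out and it is not stated whether strand was used in counting. Exons on the opposite strand overlapped Fosl1 over 1163 bases (Ccdc85b), Jund over 877 (Gm11175), Jun over 232 (Junos) and Junb over 173 (Prdx2). Of these neighbours, Prdx2 had 6399 and 5994 counts and the other 3 had at most 51. None of the other 6 members had an exon in common with a listed gene.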

How the data were processed

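PolyA RNA of 2 Dicer_KO libraries was analysed. Per the paper's methods and the labels, the authors trimmed reads with Trimmomatic, aligned them with STAR (2.4.2a) to mm10 and counted them per Ensembl gene with featureCounts (1.4.5-p1), leaving out overlapping regions. The deposited values are raw counts. How reads with several alignments were counted is not given in the sources used here. The labels give a reverse-stranded protocol.

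CPM used total counts. Ratios used TMM factors of edgeR (4.0.16, R 4.3.3), a pseudocount of 0.5 and a minimum mean of 10 counts, with exact binomial intervals (scipy 1.17.1) at 95%. With 2 libraries of 1 group no test was possible, and with 2 libraries the pattern of a gene is 1 ratio, so no genes were sought by likeness. Lengths, GC content and 3' UTRs came from GENCODE M21 (GRCm38), a later release than the authors' annotation. For 3' UTRs the transcript with the longest coding sequence was taken. The log2 ratio, its counting interval and the count of genes past 2-fold were checked on simulated counts. These were scaled by total counts and held counting error only, and the other steps were not checked in this way.

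The members and lists were chosen with earlier results of these data known. From each of the 6 lists, the 2 genes with most counts and up to 3 past 2-fold in each direction were named, and from marker lists the 2 with most counts and some after their values were seen. Some genes that this rule names are not reported here. Promoters are shown for 4 of the members that hold a motif. Alternatives were total counts, DESeq2 (1.42.0) size factors, a pseudocount of 5, other minimums and folds, other lengths, each replicate left out, and, added after seeing the data, GC adjustment, RefSeq spans and leaving out chromosome 15.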

Additional observations from a re-analysis of the deposited data

How the results depend on the processing

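No paired analysis was possible because replicates 1 and 2 are of 1 condition, with no second group to pair. Leaving out 1 library gives the value of the other, which with 2 libraries says nothing about stability. Ier3 then ranged from 3.92 to 19.7 CPM, Fos from 21.1 to 68.0 CPM and the share of Fosl1 from 0.365 to 2.05%. Of 104 values under the other alternatives, 72 stayed within the spread or interval of the main value, or within 1.5 times of a count, and 32 moved. Only the log2 ratios and their median could change sign, and 0 did. Members at least 2-fold higher in replicate 1 numbered 5, 8 with total counts, 8 at 1.5-fold and 1 at 4-fold. Members lower numbered 0, 2 at 1.5-fold and 1 after adjustment for GC content and length (Fosl1, on 10 and 18 counts). In the 6 lists, 19 genes were higher and 10 lower, and 4 and 3 at 4-fold. With total counts these numbers were 23 and 7, and after adjustment for GC content and length 14 and 10. Nab2, Tiparp and Dusp2, between -1.03 and -1.02 with TMM scaling, did not pass 2-fold with total counts.

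The shares within families moved with the gene lengths used. With the longest transcript, mean shares were 84.5% for Fos, 4.87% for Fosb and 9.48% for Fosl2, and 18.1% for Jun, 26.4% for Junb and 55.5% for Jund. With no length correction they were 68.4%, 7.05% and 23.8%, and 29.2%, 24.1% and 46.7%, and the ratio of the Jun to the Fos family was 2.22. With RefSeq spans, Jun held 23.8%, Junb 34.0% and Jund 42.2%. Egr1 was lower in replicate 1 under each scaling, at -0.49 with total counts. Depth limits Fosl1 above all.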
